A study of Mus musculus with 12 samples.

Results

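The inflammatory mediator genes of fibroblasts followed here are Il6, Cxcl1, Cxcl5, Cxcl12, Ccl2, Ccl7, Ptgs2 and Csf1, 8 genes in all. Their chromatin was described through the open-chromatin peaks that overlap the GENCODE M21 gene bodies (GRCm38) extended by 20 kb on each side. This rule found 36 of the 91354 peaks of the BGI peak set and 29 of the 87027 peaks of the Illumina peak set. By gene, the BGI and Illumina sets held 1 and 1 peaks for Il6, 5 and 3 for Cxcl1, 3 and 3 for Cxcl5, 5 and 6 for Cxcl12, 11 and 7 for Ccl2, 10 and 6 for Ccl7, 3 and 3 for Ptgs2, and 8 and 6 for Csf1. Ccl2 and Ccl7 are neighbours, and 10 BGI and 6 Illumina peaks lie in both of their windows. All peaks of these 2 sets have the same width, so that the CPM of a peak (its reads over the reads in all peaks of the sample, scaled to 1e6) can be compared between them.

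The assay was Omni-ATAC-seq: a transposase inserts sequencing adapters where chromatin is open. The C57/Bl6 cells were either embryonic fibroblasts (MEFs) that had been sorted as THY1+, or embryonic stem cells (mESCs) for which the sorting gate was THY1-, SSEA1+ and EPCAM+. MEF libraries 1, 2 and 4 and mESC libraries 1, 3 and 5 were made, 6 in all. Both a DNBSEQ-G400 (BGI) and a HiSeqX10 (Illumina) read every library, which gives 12 samples in 4 groups of 3. The platforms read the same libraries and are technical repeats, so that p-values without a library block measure the spread between 3 libraries of a cell type. With the library as a block, used between platforms, they measure how far the difference between instruments varies from library to library. The labels name no inflammatory stimulus for either cell type. Between 20.1 and 21.7 M reads (M, 1e6) of a MEF sample and between 15.9 and 17.0 M reads of an mESC sample fell into the peak set of its own platform. The cell types carried their own markers. Of 10 fibroblast genes (among them Col1a1, Col3a1 and Pdgfrb), 9 had a promoter peak that was lower in mESCs on BGI, and all 8 pluripotency genes (among them Nanog, Esrrb and Zfp42) had one that was higher. Of 8 macrophage genes only Csf1r and Cd68 had a promoter peak, and Ptprc, Spi1, Adgre1, Itgam, Aif1 and Tyrobp had none in either peak set. Those 2 went opposite ways on BGI. Csf1r had 15.9 ± 1.38 CPM in MEFs and 2.13 ± 0.977 CPM in mESCs, and Cd68 11.1 ± 3.03 and 53.8 ± 3.83 CPM (SD, n = 3). Their sum was 24.3 to 28.5 CPM in the MEF and 50.7 to 60 CPM in the mESC samples, and the part of such cells in the results was not tested. In bulk samples, fewer cells with an open region and less opening per cell cannot be told apart.

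Apart from Ptgs2, which encodes an enzyme, these genes encode secreted signals with which stromal cells call and keep leukocytes. CXCL1 and CXCL5 attract neutrophils, CCL2 and CCL7 attract monocytes through the receptor CCR2, and CXCL12 holds blood progenitors and lymphocytes in stromal niches through CXCR4. IL-6 acts on many cell types through gp130, CSF1 maintains macrophages through its receptor CSF1R, and PTGS2 is the inducible cyclooxygenase of prostaglandin synthesis. In many cell types transcription of Il6, Cxcl1, Ccl2 and Ptgs2 is raised by NF-kB, AP-1 and C/EBP factors when the cells meet inflammatory cytokines. Fibroblasts are a known source of all of these proteins.

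The sequences of 7 regions are given first: upstream or downstream peaks of Ccl2, Cxcl5 and Il6 that were open in MEFs, and the promoters of Il6, Cxcl1, Ccl2 and Ptgs2, which kept different levels in mESCs. They are the central 300 bases of a peak, plus strand of GRCm38, except for the Il6 promoter, which is the RefSeq promoter (GRCm38.p6, plus strand, 300 bases around the start). Lower case is used except for matches, on either strand, to AP-1 (TGANTCA), C/EBP (TTGCNNAA), TEAD (GGAATG), RUNX (TGTGGT), OCT (ATGCAAAT or ATGCTAAT), the NF-kB consensus and the SRF CArG box, which are in capitals, and matches may overlap. Of the 8 genes, 5 had an entry in the RefSeq promoter table (Il6, Cxcl1, Cxcl12, Ptgs2 and Csf1).
Il6 promoter, chr5:30012864-30013163: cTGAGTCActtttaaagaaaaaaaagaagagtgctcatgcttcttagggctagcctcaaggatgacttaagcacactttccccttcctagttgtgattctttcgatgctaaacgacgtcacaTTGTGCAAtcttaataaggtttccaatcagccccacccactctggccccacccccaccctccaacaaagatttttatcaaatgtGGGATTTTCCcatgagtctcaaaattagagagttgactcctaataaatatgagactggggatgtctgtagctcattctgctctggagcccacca
Il6 upstream peak, chr5:29997469-29997768: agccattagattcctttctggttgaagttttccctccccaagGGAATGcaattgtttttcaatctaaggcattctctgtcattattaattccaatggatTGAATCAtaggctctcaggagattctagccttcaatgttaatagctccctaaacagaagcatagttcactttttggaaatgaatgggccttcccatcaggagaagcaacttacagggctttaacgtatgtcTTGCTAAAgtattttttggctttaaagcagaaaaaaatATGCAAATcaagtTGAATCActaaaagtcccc
Cxcl1 promoter peak, chr5:90891056-90891355: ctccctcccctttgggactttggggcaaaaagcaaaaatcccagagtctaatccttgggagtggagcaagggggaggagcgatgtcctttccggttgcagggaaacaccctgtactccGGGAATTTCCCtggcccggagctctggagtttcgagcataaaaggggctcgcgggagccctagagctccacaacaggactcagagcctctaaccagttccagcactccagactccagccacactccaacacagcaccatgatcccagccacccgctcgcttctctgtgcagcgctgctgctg
Cxcl5 downstream peak, chr5:90763945-90764244: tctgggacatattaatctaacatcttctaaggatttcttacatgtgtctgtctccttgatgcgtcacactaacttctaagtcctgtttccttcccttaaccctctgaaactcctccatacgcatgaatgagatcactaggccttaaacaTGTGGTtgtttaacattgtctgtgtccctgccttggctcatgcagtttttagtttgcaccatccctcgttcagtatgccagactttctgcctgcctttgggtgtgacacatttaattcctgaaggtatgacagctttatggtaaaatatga
Ccl2 upstream peak, chr11:82032939-82033238: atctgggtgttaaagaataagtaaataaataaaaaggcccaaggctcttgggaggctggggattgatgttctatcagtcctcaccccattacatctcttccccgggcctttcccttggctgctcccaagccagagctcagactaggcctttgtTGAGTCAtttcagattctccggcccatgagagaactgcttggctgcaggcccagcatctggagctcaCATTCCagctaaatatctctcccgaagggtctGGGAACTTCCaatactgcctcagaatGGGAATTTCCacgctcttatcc
Ccl2 promoter peak, chr11:82035388-82035687: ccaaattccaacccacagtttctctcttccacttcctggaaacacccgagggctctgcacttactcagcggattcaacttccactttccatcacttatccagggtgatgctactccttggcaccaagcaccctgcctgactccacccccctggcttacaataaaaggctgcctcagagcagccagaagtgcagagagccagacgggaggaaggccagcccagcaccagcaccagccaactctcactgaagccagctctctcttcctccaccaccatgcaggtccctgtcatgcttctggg
Ptgs2 promoter peak, chr1:150099716-150100015: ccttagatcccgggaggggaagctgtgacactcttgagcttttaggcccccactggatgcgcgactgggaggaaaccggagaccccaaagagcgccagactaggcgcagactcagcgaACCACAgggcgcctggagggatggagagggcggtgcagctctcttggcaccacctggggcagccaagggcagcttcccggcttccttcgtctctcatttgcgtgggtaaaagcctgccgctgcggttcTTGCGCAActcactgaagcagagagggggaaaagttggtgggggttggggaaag

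The Ccl2 upstream peak holds 2 NF-kB matches, GGGAACTTCC at chr11:82033191-82033200 and GGGAATTTCC at chr11:82033217-82033226, and 1 match each to AP-1 and TEAD. In the Cxcl1 promoter, 2 overlapping NF-kB matches lie at chr5:90891174-90891184. The RefSeq Il6 promoter holds an NF-kB match, GGGATTTTCC at chr5:30013070-30013079, and a C/EBP match at chr5:30012986-30012993, both inside the Il6 promoter peak, and an AP-1 match before the edge of the peak. The Ptgs2 promoter has a C/EBP match (TTGCGCAA) at chr1:150099962-150099969, whereas the Ccl2 promoter peak has no match in its central 300 bases. Over all members on BGI, the central 300 bases held an NF-kB match in 8 of 36 peaks, against 8.81% of the 91285 BGI peaks whose sequence was searched. By call, 6 of the 30 members lower in mESCs and 2 of the other 6 held one. Those 2 are the Cxcl2 promoter, which was not called and has an overlapping pair like that of Cxcl1, and the Cxcl12 peak at 5.52 kb, which was higher in mESCs. For AP-1 the numbers were 9 of 36 and 21.4%, for TEAD 11 of 36 and 23.5%, for RUNX 10 of 36 and 21.8%, and for C/EBP 3 of 36 and 10.4%. SRF and OCT matches were found in 0 of 36 members, against 1.63% and 3.75% of all peaks. On Illumina 6 of the 29 members held an NF-kB match, against 9.11% of the peaks searched. Over 32851 RefSeq promoters, 8.46% held an NF-kB match, 7.81% an AP-1 match and 10.8% a C/EBP match. Of the 5 members among them, Il6, Cxcl1 and Csf1 (chr3:107760614-107760623) held an NF-kB match, and Cxcl12 and Ptgs2 did not. An AP-1 match was in that of Il6 only, and a C/EBP match in those of Il6 and Ptgs2. These are matches of letters and do not show binding.

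The first comparison asked which of these regions differ in accessibility between mESCs and MEFs. On BGI, 30 of the 36 member peaks were lower in mESCs, 3 were higher and 3 did not pass the threshold (edgeR quasi-likelihood test, Benjamini-Hochberg adjusted p under 0.05 over all peaks). Of all BGI peaks 43.2% were lower and 40.9% higher, so that a call in itself is common in this contrast. Of the members, 83.3% were lower and 8.33% higher. Their median log2 fold change (mESC over MEF) was -2.96, against -0.08 for all peaks. Over the 13 peaks of the gene bodies alone, without the 20 kb on each side, it was -0.97. A log2 fold change of -3 or less was found in 18 of 36 members, against 15.9% of all peaks. The Ccl2 window, which shares most of its peaks with that of Ccl7, supplied 10 of these 18 and 11 of the 30 lower peaks. The windows of Il6 and Cxcl12 supplied 0 of the 18. The MEF and mESC samples did not overlap in 33 of 36 members, against 85.1% of all peaks. On Illumina, 24 of 29 peaks were lower, 4 were higher and 1 did not pass, against 42.4% lower and 42.1% higher among all Illumina peaks. There the median was -1.86, against -0.03 for all peaks, and -0.86 over the 11 peaks of the gene bodies alone. A log2 fold change of -3 or less was found in 14 of 29 members (48.3%, all peaks 15.1%), and 27 of 29 did not overlap (all peaks 85.6%). The Ccl2 window supplied 6 of these 14 and 7 of the 24 lower peaks. Of the BGI members, 26 had an Illumina peak that covers at least 50% of their width and 10 did not, and of the Illumina members 26 had such a BGI partner and 3 did not. In these windows the MEF list of reproducible peaks held 33 peaks and the mESC list 11 on BGI, and 27 and 11 on Illumina. The whole BGI lists held 58813 and 62270. Each peak set joins both lists, so most members entered through the MEF list only. A lower level in mESCs is thus favoured by how the peaks were chosen.

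**Figure D1:**
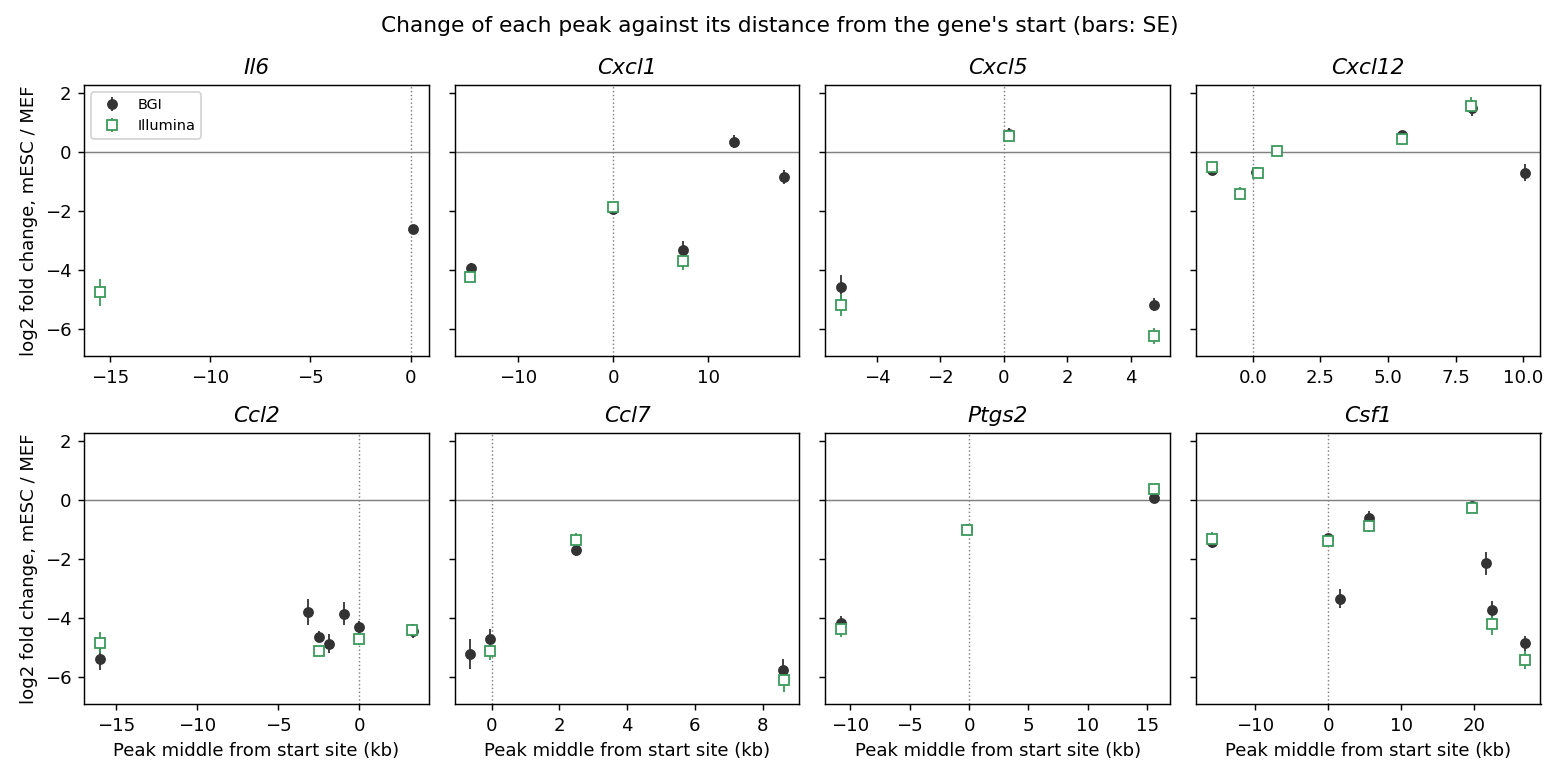
Log2 fold change (mESC over MEF, vertical axis) of each member peak against the distance of its middle from the start of its gene in kb (horizontal axis) on BGI (filled circles) and Illumina (open squares); bars are standard errors, and peaks shared by the Ccl2 and Ccl7 windows are drawn in the panel of the nearer gene. All Ccl2 and Ccl7 peaks lie below 0, whereas the peaks of Cxcl12 lie between -1.40 and 1.58.

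The chromatin of the 2 monocyte chemokine genes, Ccl2 (chr11:82035571-82037453) and Ccl7 (chr11:82045712-82047525), was more open in MEFs than in mESCs at every peak. All 11 BGI peaks and all 7 Illumina peaks of the Ccl2 window were lower in mESCs, with log2 fold changes of -5.76 to -1.67 and -6.08 to -1.36. All of them entered the peak sets through the MEF lists of reproducible peaks, since the mESC lists hold 0 peaks in this window. That every peak was lower is therefore favoured by how the peaks were chosen. The peak 2.48 kb upstream of Ccl2, which carries the 2 NF-kB matches given above, was the highest of the window. It had 26.0, 31.6 and 29.5 CPM in MEFs 1, 2 and 4 and 1.51, 0.828 and 1.37 CPM in mESCs 1, 3 and 5. The lowest MEF library was thus far above the highest mESC library, by 23.5-fold in the means, and the log2 fold change was -4.62 ± 0.19 (SE, n = 3, adjusted p = 9.46e-13). Its Illumina partner gave 28.6 ± 1.53 CPM in MEFs and 0.859 ± 0.203 CPM in mESCs (SD, n = 3), a log2 fold change of -5.10 ± 0.18 (SE, adjusted p = 1.85e-13).

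At the Ccl2 promoter, 21.5, 20.5 and 19.2 CPM were counted in the MEF libraries and 1.01, 1.06 and 1.18 CPM in the mESC libraries on BGI. This is a log2 fold change of -4.29 ± 0.19 (SE, n = 3, adjusted p = 2.12e-12), with 53 reads over the 3 mESC samples. The Ccl7 promoter was less open in MEFs, with 11.5, 9.05 and 7.47 CPM, and had 0.504, 0.473 and 0.124 CPM in mESCs. Its log2 fold change was -4.71 ± 0.36 (SE, n = 3, adjusted p = 1.23e-09). The most negative change of all 36 BGI members was that of the peak 8.61 kb downstream of the start of Ccl7, on the side of Ccl11, an eosinophil chemokine. It had 9.32, 7.16 and 6.72 CPM in MEFs and 0.189, 0.118 and 0.124 CPM in mESCs, the last from 7 reads in all, and a log2 fold change of -5.76 ± 0.38 (SE, adjusted p = 2.42e-10). The 6 other peaks lower by over 3 on the log2 scale had means of 4.61 to 17.4 CPM in MEFs and 0.125 to 0.840 CPM in mESCs. They lay 16.0 kb (log2 fold change -5.36 ± 0.39), 3.17 kb (-3.79 ± 0.43), 1.90 kb (-4.86 ± 0.32) and 0.924 kb (-3.84 ± 0.38) before and 3.31 kb (-4.43 ± 0.25) after the Ccl2 start and 0.628 kb before that of Ccl7 (-5.22 ± 0.51; SE), and the highest adjusted p among them was 2.26e-07. Of these, the peak at 16.0 kb lies at a start of the gene Gm31522 and that at 3.31 kb at one of Gm17268, so that they cannot be given to Ccl2 alone. The smallest change of the locus was at 2.50 kb downstream of the Ccl7 start, with 7.81 ± 0.814 CPM in MEFs and 2.56 ± 0.232 CPM in mESCs (SD, n = 3), a log2 fold change of -1.67 ± 0.22 (SE, adjusted p = 1.25e-06). This was the only peak of the locus in which MACS2 had called a summit in every mESC sample, with a -log10 p of 5.95 to 16.0. As said above, neither mESC list of reproducible peaks held a peak in the Ccl2 or Ccl7 window, while the MEF lists held 11 (BGI) and 7 (Illumina) in that of Ccl2. These lists are how the peaks were chosen and are not a further result.

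**Figure D2:**
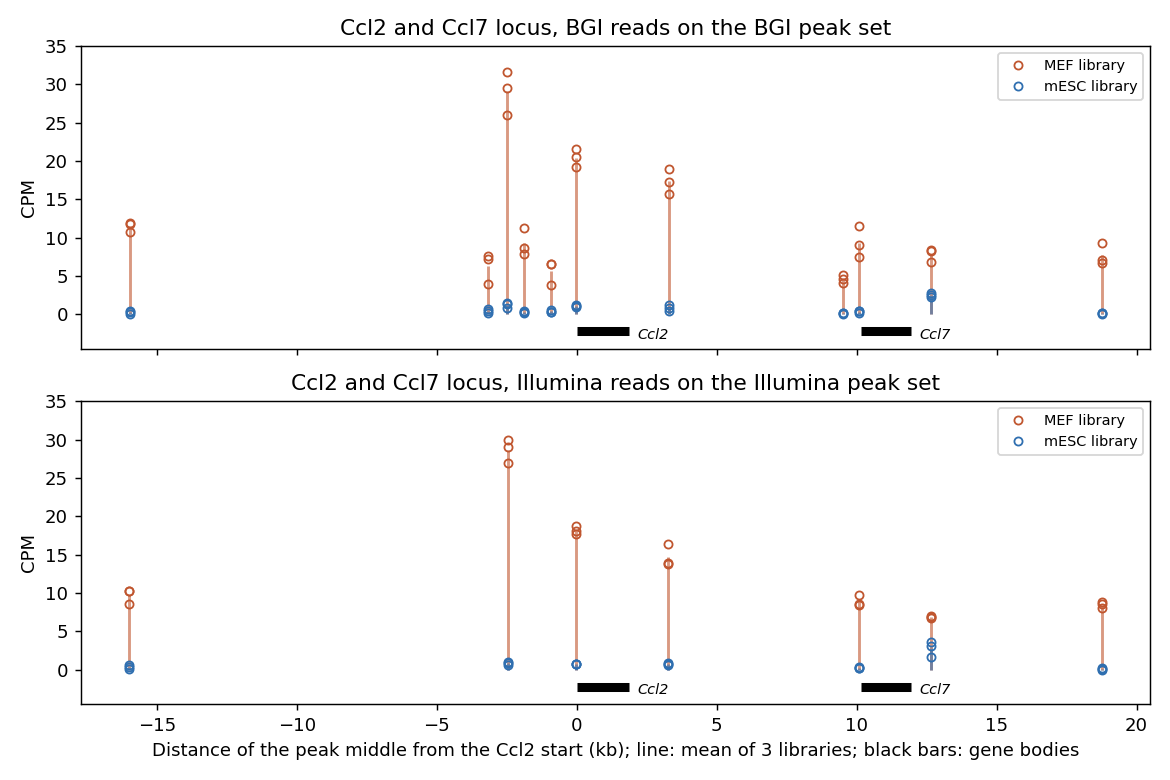
CPM (vertical axis) of each peak of the Ccl2 and Ccl7 windows against the distance of its middle from the Ccl2 start in kb (horizontal axis), for BGI (top) and Illumina (bottom); circles are libraries, lines are means of 3 and black bars are the gene bodies. The peak at -2.48 kb reached 26.0 to 31.6 CPM in MEFs on BGI, and no mESC library exceeded 3.56 CPM at any peak of the locus.

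The genes of the neutrophil chemokines, Cxcl1 (chr5:90891241-90893115) and Cxcl5 (chr5:90759360-90761624), had promoters that kept signal in mESCs and neighbouring peaks that were lower there. The Cxcl1 promoter, which carries the overlapping NF-kB matches, held 14.9, 19.3 and 20.4 CPM in MEFs and 6.18, 4.91 and 4.04 CPM in mESCs, a log2 fold change of -1.91 ± 0.18 (SE, n = 3, adjusted p = 2.09e-08), and a summit had been called there in every mESC sample on either platform. Peaks 7.35 kb (-3.30 ± 0.31, SE, adjusted p = 1.76e-08) and 17.9 kb downstream (-0.84 ± 0.24, SE, adjusted p = 0.00402) were also lower. The window reaches the promoter of Cxcl2, a close paralog of Cxcl1. There 4.39 ± 0.682 CPM were found in MEFs and 5.90 ± 0.190 CPM in mESCs (SD, n = 3), and the difference did not pass the threshold (log2 fold change 0.36, 95% interval -0.05 to 0.77, adjusted p = 0.122), although when the down-sampled depths served as library sizes it was called higher (0.50, adjusted p = 0.0367).

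At Cxcl5, promoter and flanks went in opposite directions. The promoter peak was low and was higher in mESCs, with 4.71, 3.78 and 5.33 CPM in MEFs and 7.25, 7.21 and 7.58 CPM in mESCs on BGI. The groups did not overlap, and the log2 fold change was 0.61 ± 0.20 (SE, n = 3, adjusted p = 0.0102), with 0.56 ± 0.19 (SE, adjusted p = 0.0102) on Illumina. The Cxcl5 downstream peak, 4.73 kb after the start, had 21.2, 22.5 and 19.6 CPM in MEFs and 0.378, 0.710 and 0.745 CPM in mESCs. Its log2 fold change was -5.16 ± 0.22 (SE, n = 3, adjusted p = 1.75e-12) on BGI and -6.22 ± 0.26 (SE, adjusted p = 1.03e-12) on Illumina, the most negative of the 29 Illumina members. The gene start nearest to this peak is that of Ppbp, another CXC chemokine, so that the peak cannot be given to Cxcl5 alone. A peak 5.13 kb before the Cxcl5 start was lower as well (-4.58 ± 0.43 on BGI, SE, adjusted p = 1.98e-08).

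Cxcl12 (chr6:117168535-117181367), the homeostatic chemokine among the members, was the gene with the smallest differences. Its promoter had 10.9, 13.7 and 13.2 CPM in MEFs and 7.38, 9.46 and 8.20 CPM in mESCs on BGI, without overlap, and a log2 fold change of -0.66 ± 0.16 (SE, n = 3, adjusted p = 0.00118). On Illumina it had 16.8 ± 0.688 and 10.5 ± 0.432 CPM (SD, n = 3), a log2 fold change of -0.71 ± 0.13 (SE, adjusted p = 4.73e-05). The peak of highest signal in the window, 1.51 kb before the start, had 14.2, 13.8 and 17.3 CPM in MEFs and 11.5, 8.40 and 11.2 CPM in mESCs on BGI (log2 fold change -0.61 ± 0.15, SE, adjusted p = 0.00148). At 2 peaks inside the gene body the sign was turned. The peak at 8.10 kb was higher in mESCs, with 2.12, 2.14 and 1.64 CPM in MEFs and 5.42, 4.79 and 7.45 CPM in mESCs (log2 fold change 1.51 ± 0.27, SE, adjusted p = 5.12e-05), and so was that at 5.52 kb (0.57 ± 0.16, SE, adjusted p = 0.00342). The latter call on Illumina (0.43 ± 0.18, SE, adjusted p = 0.0343) was lost without MEF 1 (0.34, adjusted p = 0.117), MEF 2 (0.45, adjusted p = 0.0540) or mESC 3 (0.21, adjusted p = 0.315). At 10.1 kb the BGI peak was called lower (-0.69 ± 0.29, SE, adjusted p = 0.0326), but MEF 1 with 6.23 CPM stood above MEF 4 with 3.09 CPM, the groups overlapped, and the call was lost without MEF 1 (log2 fold change -0.37, adjusted p = 0.313), MEF 2 (-0.69, adjusted p = 0.0741), mESC 1 (-0.63, adjusted p = 0.0897) or mESC 5 (-0.64, adjusted p = 0.0941). It was also lost with the Illumina columns (-0.37, adjusted p = 0.220), with both platforms summed (-0.53, adjusted p = 0.0580) and with down-sampled depths (-0.55, adjusted p = 0.0878). On the Illumina set 2 further promoter peaks were present. The one 0.466 kb before the start was lower (-1.40 ± 0.22, SE, adjusted p = 1.49e-05) and the one at 0.889 kb was not called (0.04, 95% interval -0.31 to 0.40, adjusted p = 0.823).

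Il6 (chr5:30013114-30019981), the gene of interleukin 6, had 1 BGI peak, at its promoter. It held 23.9, 20.6 and 28.3 CPM in MEFs and 4.10, 4.20 and 4.16 CPM in mESCs, a log2 fold change of -2.61 ± 0.16 (SE, n = 3, adjusted p = 6.92e-11). The lowest MEF library was above all mESC libraries, and the mESC level was well above that of the Ccl2 promoter, with 203 reads over the 3 samples against 53. A peak of the Illumina set on this promoter was not analysed here, and nothing about the platforms is read from that, since the tables used here may not hold every row. The Illumina reads of the same libraries, counted on the BGI peak, gave 19.7, 20.1 and 24.9 CPM in MEFs and 4.34, 4.04 and 4.67 CPM in mESCs (log2 fold change -2.36, adjusted p = 1.08e-10), and in the 3 Illumina MEF samples MACS2 had called a summit there with a -log10 p of 116 to 136. In MEFs the reads of this peak did not pass the threshold between platforms (log2 fold change of BGI over Illumina 0.16 ± 0.07, SE, library block, adjusted p = 0.0756). The 1 peak of the window in the Illumina set used here lay 15.5 kb upstream, near the noncoding gene A230098N10Rik, with 8.67, 7.40 and 5.07 CPM in MEFs and 0.438, 0.354 and 0 CPM in mESCs. Its log2 fold change was -4.75 ± 0.46 (SE, n = 3, adjusted p = 2.62e-08), from 13 reads in mESCs, and it is the only member with an OCT match.

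Csf1 (chr3:107741048-107760469, minus strand), which encodes the macrophage growth factor, combined a promoter that was open in both cell types with distal peaks that were open in MEFs. Its promoter had 31.1, 32.0 and 28.3 CPM in MEFs and 13.9, 11.9 and 13.9 CPM in mESCs on BGI. The log2 fold change was -1.27 ± 0.12 (SE, n = 3, adjusted p = 1.22e-08) on BGI and -1.38 ± 0.11 (SE, adjusted p = 3.14e-09) on Illumina. Behind the 3' end of the gene, 27.0 kb from the start, a peak had 19.3, 17.3 and 14.1 CPM in MEFs and 0.441, 0.769 and 0.621 CPM in mESCs, a log2 fold change of -4.84 ± 0.25 (SE, adjusted p = 1.17e-11) on BGI and -5.41 ± 0.30 (SE, adjusted p = 2.68e-11) on Illumina. Also lower were the peaks at 22.5 kb (-3.71 ± 0.31, SE, adjusted p = 4.89e-09), at 21.7 kb (-2.14 ± 0.38, SE, adjusted p = 4.58e-05) and, inside the gene, at 1.65 kb (-3.33 ± 0.31, SE, adjusted p = 2.11e-08). Between these stood a peak at 19.7 kb, just past the gene's end, that was open in both cell types. It had 22.5, 21.5 and 25.7 CPM in MEFs and 21.4, 22.5 and 20.4 CPM in mESCs, and was not called on BGI (log2 fold change -0.18, 95% interval -0.40 to 0.03, adjusted p = 0.132), although with the Illumina columns it was called lower (-0.25, adjusted p = 0.0350). On Illumina the same peak was called lower (-0.27 ± 0.11, SE, adjusted p = 0.0289), a call that was lost without MEF 1 (-0.25, adjusted p = 0.0810), without mESC 5 (-0.21, adjusted p = 0.120), with down-sampled depths (-0.14, adjusted p = 0.262), at a mean count of at least 50 (-0.23, adjusted p = 0.0540) and with the BGI columns (-0.23, adjusted p = 0.0611). At 5.63 kb, inside the gene, the BGI call (-0.59 ± 0.21, SE, adjusted p = 0.0159) was lost without mESC 3 (-0.50, adjusted p = 0.0636) and with down-sampled depths (-0.45, adjusted p = 0.0619), while its Illumina partner was lower (-0.86 ± 0.21, SE, adjusted p = 0.0011) in each alternative fit as well. The peak 16.0 kb before the start varied most among MEF libraries, with 18.7, 18.7 and 10.7 CPM on BGI, and on Illumina the same library, MEF 4, was again the lowest (16.3, 16.6 and 9.35 CPM). It was lower in mESCs all the same (-1.41 ± 0.22, SE, adjusted p = 9e-06).

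Ptgs2 (chr1:150100031-150108227), the gene of the inducible cyclooxygenase, had a promoter that was open in both cell types. The BGI libraries gave 21.2, 22.2 and 18.7 CPM in MEFs and 11.7, 9.52 and 12.2 CPM in mESCs, a 1.86-fold difference without overlap (log2 fold change -0.97 ± 0.14, SE, n = 3, adjusted p = 3.37e-06; on Illumina -1.02 ± 0.13, adjusted p = 7.81e-07). The peak 10.8 kb upstream, nearest to the start of the antisense gene Ptgs2os, had 12.7, 13.4 and 11.2 CPM in MEFs and 0.504, 0.887 and 0.745 CPM in mESCs, a log2 fold change of -4.17 ± 0.25 (SE, adjusted p = 7.29e-11). At 15.6 kb downstream of the start 16.7, 18.3 and 14.0 CPM stood against 19.9, 16.0 and 18.5 CPM, and the groups overlapped. This peak was not called on BGI (log2 fold change 0.08, 95% interval -0.19 to 0.35, adjusted p = 0.599), and without MEF 4 its sign turned (-0.03). On Illumina it was called higher in mESCs (0.39 ± 0.15, SE, adjusted p = 0.0223), but not without MEF 4 (0.22, adjusted p = 0.145), mESC 1 (0.27, adjusted p = 0.137) or mESC 5 (0.39, adjusted p = 0.0587), with the BGI columns (0.05, adjusted p = 0.753) or with both platforms summed (0.20, adjusted p = 0.179). With the Illumina columns the BGI peak was called higher too (0.38, adjusted p = 0.0273).

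**Figure D3:**
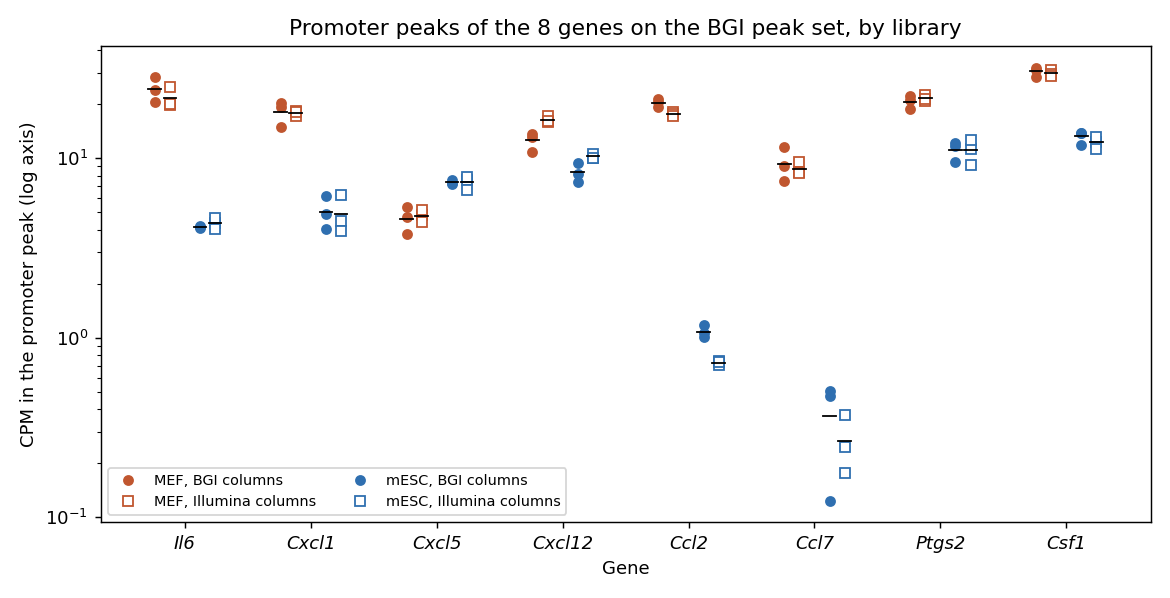
CPM on a log axis (vertical) in the promoter peak of each gene (horizontal) on the BGI peak set, for MEFs and mESCs, with BGI columns as filled circles and Illumina columns as open squares; points are the 3 libraries of a group and short lines their means. In 7 genes the MEF libraries lie above the mESC libraries, and in Cxcl5 below them.

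The promoters of these genes and their other peaks were also counted apart. On BGI, 10 peaks lay within 1 kb of a start site of a member, of which 9 were lower in mESCs and 1 higher, with a median log2 fold change of -2.26. The 26 others had a median of -3.32 (21 lower, 2 higher). On Illumina, 9 promoter peaks had a median of -1.38 (7 lower, 1 higher) and 20 others one of -4.20 (17 lower, 3 higher). Among all peaks the classes go by the start sites of any gene, by which 13 of the BGI and 11 of the Illumina members are promoter peaks. Of all promoter peaks 41.0% were lower and 31.3% higher on BGI, and of all other peaks 44.3% and 45.5%. On Illumina these shares were 42.4% and 31.6% for promoter peaks and 42.4% and 47.6% for other peaks. Over the strongest promoter peaks of protein-coding genes, 43.5% were lower and 23.3% higher on BGI, and 45.1% and 23.8% on Illumina. Peaks of 1 window share their neighbourhood and are not independent, and the difference between the classes was not tested. Within the genes, Il6, Cxcl1, Ptgs2 and Csf1 kept between 4.15 and 13.2 CPM at their promoter in mESCs on BGI, whereas Ccl2 and Ccl7 kept 1.08 and 0.367 CPM.

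The CPM of all peaks in a window was also summed, as a description of the whole locus without a test. On BGI the Ccl2 sum was 132, 138 and 117 CPM in MEFs and 8.51, 7.45 and 7.58 CPM in mESCs, 16.4-fold higher in MEFs. Of 18346 protein-coding genes with a peak in such a window, 0.801% had a lower ratio of mESC to MEF. The Cxcl1 sum was 62.4 ± 3.14 CPM in MEFs and 16.4 ± 1.47 CPM in mESCs (SD, n = 3), and the Cxcl5 sum 33.3 ± 0.623 and 8.28 ± 0.136 CPM. Csf1 had 115 ± 8.07 CPM in MEFs and 48.6 ± 2.51 CPM in mESCs, and Ptgs2 49.5 ± 5.08 and 30.0 ± 3.13 CPM. The log2 ratios of mESC to MEF ran from Ccl2 (-4.04) and Ccl7 (-3.96) over Il6 (-2.55), Cxcl5 (-2.01), Cxcl1 (-1.93), Csf1 (-1.24) and Ptgs2 (-0.72) to Cxcl12 (-0.09), with a median of 0.06 over all those genes. Cxcl12 had 41.0, 41.7 and 43.1 CPM in MEFs and 37.8, 39.7 and 40.9 CPM in mESCs, groups that lie next to each other. On Illumina the ratios were -4.04 for Ccl2, -3.98 for Ccl7, -2.84 for Cxcl1, -1.95 for Cxcl5, -1.26 for Csf1, -0.60 for Ptgs2 and -0.20 for Cxcl12, and the value of -4.74 for Il6 rests on the upstream peak alone. With 50 kb in place of 20 kb on each side the Il6 ratio turned its sign (0.41 on BGI and 2.12 on Illumina), whereas the other 7 genes kept theirs. The alternatives were 50 kb, down-sampled depths and leaving out each library. Of their 128 ratios on both platforms, 110 stayed within the spread of the libraries. A further 16 moved beyond it with the same sign, and 2 turned.

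**Figure D4:**
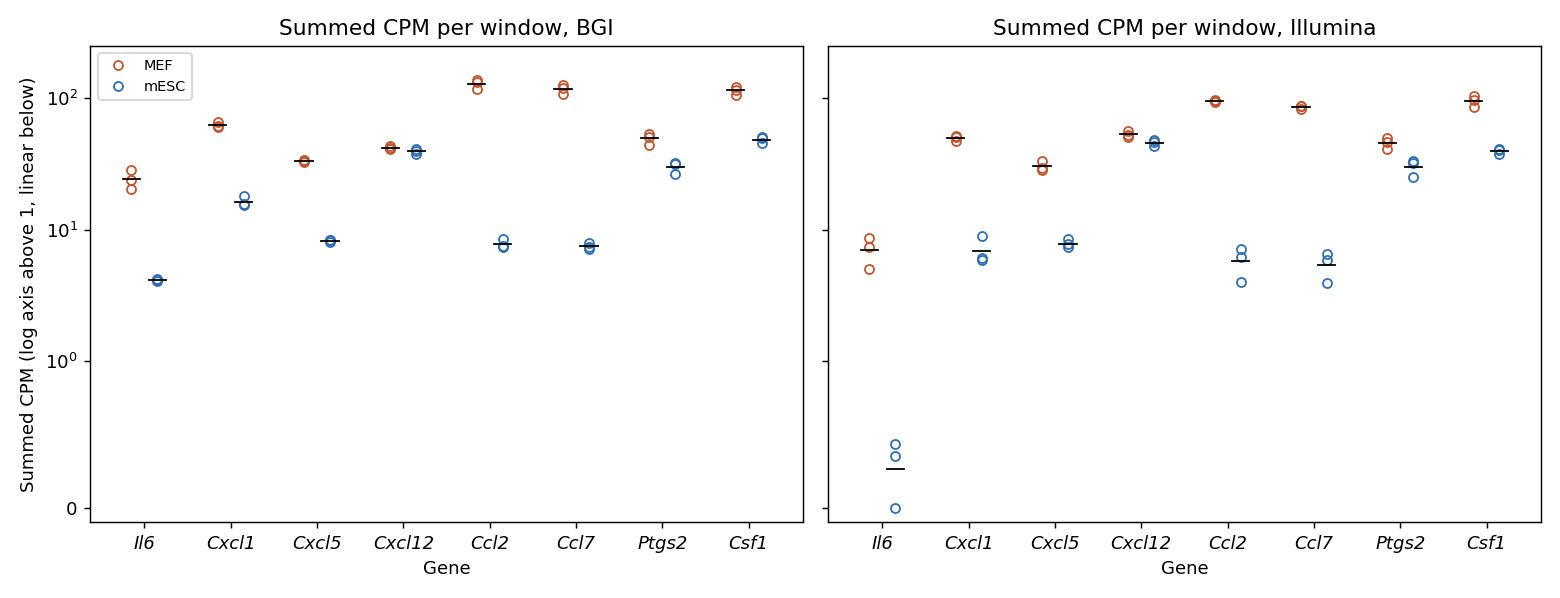
Summed CPM of the peaks in each gene window (vertical axis, logarithmic above 1 and linear below) for each gene (horizontal axis) on BGI (left) and Illumina (right); circles are libraries and short lines the means of 3. MEFs lie above mESCs at every gene, by 16.4-fold at Ccl2 and by 1.06-fold at Cxcl12 on BGI.

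The second comparison asked whether the instrument changes the signal at these genes. In the peak set of the MEFs from both platforms, 36 of 61891 peaks were members, and in that of the mESCs 12 of 67063. Without pairing, 0 of the 36 and 0 of the 12 were called between BGI and Illumina by edgeR, with 2 and 2 at an unadjusted p under 0.05. By DESeq2 1 of the 25 MEF peaks with an adjusted p was called and 0 of 7 in mESCs. Of all peaks 4.06% were called in MEFs and 3.23% in mESCs. These shares changed when a library was left out. The 2514 calls by edgeR in MEFs became 0 without MEF 1 (5428 at an unadjusted p under 0.05), 0 without MEF 2 (4885 unadjusted) and 6132 without MEF 4. The 2164 calls in mESCs became 1 without mESC 1, 1373 without mESC 3 and 0 without mESC 5 (4747 unadjusted). A fit with fewer libraries also has less power, and the part of any single library was not tested. With the library as a block, the fit suited to libraries read on both instruments, 12 of the 36 MEF members were called, 2 lower and 10 higher on BGI, against 15.3% lower and 13.9% higher among all MEF peaks. In mESCs 1 was lower and 1 higher, against 15.6% and 5.78% of all mESC peaks. The members differed by at most 0.52 (MEFs) and 0.34 (mESCs) on the log2 scale.

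The Csf1 peak at 19.7 kb was higher on BGI in both cell types, with a blocked log2 fold change of 0.18 ± 0.07 (SE, adjusted p = 0.0386) in MEFs and 0.24 ± 0.07 (SE, adjusted p = 0.00877) in mESCs. The Cxcl12 promoter was lower on BGI in both. In MEFs 1, 2 and 4 it had 11.9, 14.8 and 14.4 CPM on BGI and 16.8, 18.0 and 17.9 CPM on Illumina, lower on BGI in each library (blocked log2 fold change -0.38 ± 0.08, SE, adjusted p = 0.000157; unpaired adjusted p = 0.146). In mESCs the means were 8.52 ± 0.972 and 10.4 ± 0.319 CPM (SD, n = 3; blocked log2 fold change -0.34 ± 0.10, SE, adjusted p = 0.00643; unpaired adjusted p = 0.283). With a GC content of 68.9% in both sets it was the most GC-rich of the members, and the second MEF peak lower on BGI, 0.466 kb before the same start, had 51.2% GC (-0.37 ± 0.13, SE, adjusted p = 0.0239). The largest difference in favour of BGI was at 0.628 kb before the Ccl7 start, with 41.6% GC, where the BGI mean was 4.72 ± 0.481 CPM and the Illumina mean 3.26 ± 0.608 CPM (SD, n = 3; blocked log2 fold change 0.52 ± 0.16, SE, adjusted p = 0.00856; unpaired adjusted p = 0.298). The part of GC content in these differences was not tested.

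**Figure D5:**
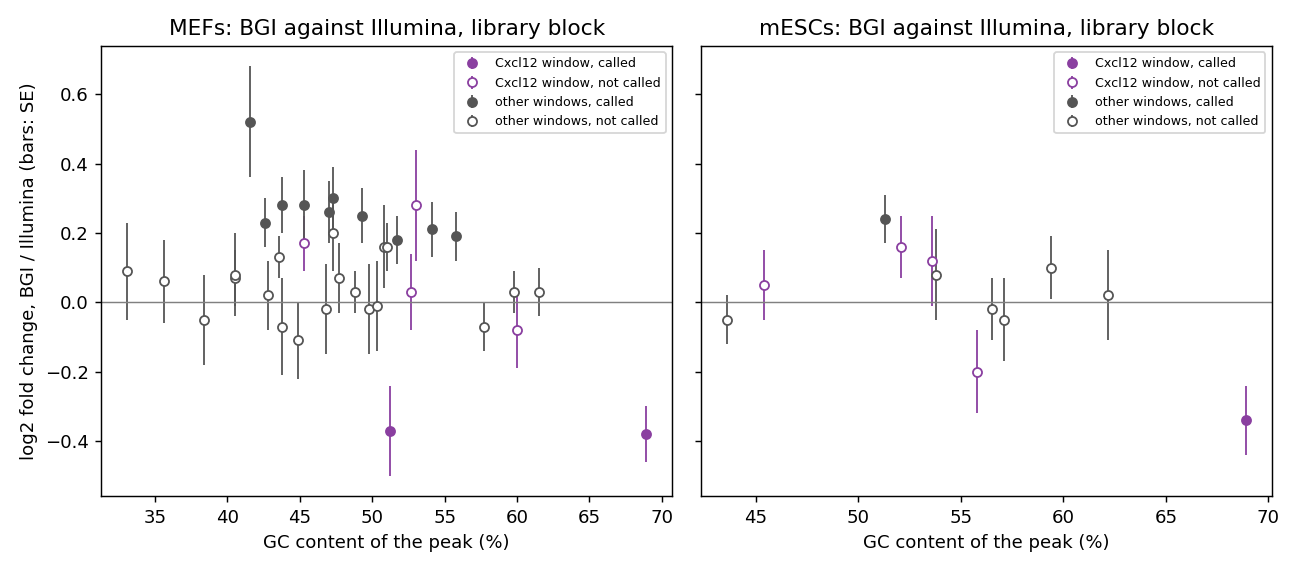
Blocked log2 fold change of BGI over Illumina (vertical axis, bars are standard errors) against the GC content of the peak in percent (horizontal axis) for the member peaks in MEFs (left) and mESCs (right); filled points passed an adjusted p of 0.05 and the Cxcl12 window is in purple. The point at 68.9% GC, the Cxcl12 promoter, lies at -0.38 in MEFs and -0.34 in mESCs.

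Other genes of the same pathways were counted list by list, each gene by its strongest promoter peak. Against the 43.5% lower and 23.3% higher of all such promoter peaks on BGI, the NF-kB and inflammatory transcription genes were lower in 9 and higher in 0 of 15, with a median log2 fold change of -0.34 against -0.17 for all promoter peaks. The lowest were the C/EBP family genes Cebpd (-1.38 ± 0.11, adjusted p = 3.37e-09) and Cebpb (-1.04 ± 0.13, adjusted p = 8.58e-07) and the inhibitor gene Nfkbie (-0.76 ± 0.13, adjusted p = 2.79e-05; SE). The other 6 did not pass the threshold. On Illumina 11 of the 15 were lower and 0 higher. Of 9 prostanoid enzymes 8 had a promoter peak, 6 lower and 1 higher. Pla2g4a, whose product releases arachidonic acid from membranes, was the lowest with 11.1 ± 2.43 CPM in MEFs and 2.48 ± 0.676 CPM in mESCs (SD, n = 3; log2 fold change -2.22 ± 0.24, SE, adjusted p = 9.31e-08), and Ptges, a prostaglandin E synthase, was higher (0.34 ± 0.12, SE, adjusted p = 0.0152). The Illumina counts for this list were the same.

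Of the receptors, 10 of 16 had a promoter peak, 4 lower and 2 higher on BGI and on Illumina. These shares are near those of all promoter peaks (43.5% lower and 23.3% higher on BGI, 45.1% and 23.8% on Illumina), and the lists that follow hold only 3 to 8 promoter peaks each. Csf1r, which encodes the receptor of CSF1, was the lowest, with 15.9 ± 1.38 CPM in MEFs and 2.13 ± 0.977 CPM in mESCs (SD, n = 3; log2 fold change -2.97 ± 0.25, SE, adjusted p = 4.14e-09). Ptger1 (-1.02 ± 0.17, adjusted p = 2.14e-05) and Ptger2 (-0.72 ± 0.18, adjusted p = 0.00115; SE), receptors of prostaglandin E, followed, and the promoters of Cxcr3 (3.93 ± 0.38, adjusted p = 3.13e-08) and Ptger3 (1.45 ± 0.19, adjusted p = 1.04e-06; SE) were higher. Among the other CXC chemokines 5 of 11 had a promoter peak (2 lower, 1 higher), with Cxcl10 at -1.18 ± 0.18 (SE, adjusted p = 8.28e-06) and Cxcl3 at 0.74 ± 0.18 (SE, adjusted p = 0.00109). Of 15 other CC chemokines 3 had one (2 lower, 1 higher), the lowest being Ccl9 (-4.92 ± 0.35, SE, adjusted p = 6.26e-10). Of 12 other secreted mediators 8 had a promoter peak, 2 lower and 4 higher (median 0.21). Tslp (-1.65 ± 0.15, adjusted p = 1.68e-08) and Csf3 (-0.82 ± 0.17, adjusted p = 0.000194; SE) were lower, and Il34, the second ligand of CSF1R, was the highest with 2.02 ± 0.822 CPM in MEFs and 15.3 ± 0.358 CPM in mESCs (SD, n = 3; log2 fold change 2.85 ± 0.23, SE, adjusted p = 3.45e-09). On Illumina these 3 lists gave 2 lower and 1 higher of 4, 2 and 1 of 3, and 3 and 4 of 8.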

How the data were processed

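Omni-ATAC-seq was analysed in 12 samples from 6 libraries. Sample titles gave the cell type and platform of each. The authors trimmed and aligned the reads to mm10 (GRCm38), removed duplicates, reads with a mapping quality under 10 and mitochondrial reads, and down-sampled to 60 M (MEFs) or 45 M reads (mESCs; M, 1e6). Illumina reads of 150 bp had been trimmed to 100 bp. The authors called peaks per sample with MACS2 (p of 0.01), and the deposited calls hold the -log10 of the p-value used here. Reproducible peaks reached a depth-scaled score of 3 in at least 2 samples. The deposited tables hold raw read counts per peak and sample, without normalization. Columns without a platform suffix were taken as Illumina, and 0 per-sample columns were left unused.

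Peaks were assigned with GENCODE M21, with promoters within 1 kb of a start site. CPM are counts scaled to 1e6 reads in the peak set. Each contrast was fitted on the whole table with edgeR 4.0.16 (quasi-likelihood F test, TMM, default low-count filter, two-sided, Benjamini-Hochberg, adjusted p under 0.05) in R 4.3.3, which was tested on simulated data. DESeq2 1.42.0 was an alternative. Standard errors and 95% intervals come from these fits. Locus sums and motif matches are descriptions. The values of 1 BGI member peak and its Illumina partner on their own are not reported here although the naming rule below holds them, while the counts and sums include them. For each gene the promoter peak, the called peaks with the lowest and highest log2 fold change and the peak of highest CPM were named, plus further peaks of the windows chosen after their values were seen, and for lists the extremes of called genes. The members and lists were chosen with earlier results of these data known. Same-numbered samples are the same library on both platforms. Their deviations from the group mean gave a correlation of 0.617 to 0.837 for MEFs and of 0.515 to 0.725 for mESCs. For different libraries it was -0.675 to 0.289 (MEFs) and -0.511 to -0.115 (mESCs). MEF and mESC libraries are unrelated and were not paired. No 2 samples held identical counts. The median count per peak was 143 to 156 in MEFs and 122 to 129 in mESCs.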

Additional observations from a re-analysis of the deposited data

How the results depend on the processing

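Of the 36 member peaks on BGI, 31 kept their call in each of the 13 alternative fits that tested them (at a mean count of at least 50 only 35 were tested), and of 29 on Illumina 26 did; the peaks whose call changed had log2 fold changes of at most 0.69 and 0.43. Alternatives were RLE size factors, down-sampled depths, DESeq2, no filter, a mean count of at least 50, the columns of the other platform, both platforms summed and leaving out each library. Leave-one-out counts were 29 to 30 lower and 3 higher on BGI and 23 to 24 lower and 3 higher on Illumina. Down-sampled depths moved the median log2 fold change of all peaks by 0.14 (BGI) and 0.13 (Illumina). Requiring a log2 fold change of at least 1 left 24 lower and 1 higher peak on BGI and 20 and 1 on Illumina. Within the gene bodies alone (0 kb) 10 of 13 (BGI) and 7 of 11 (Illumina) peaks were lower and 3 and 3 higher, with medians of -0.97 and -0.86, and with 50 kb on each side 43 lower and 6 higher of 54 and 37 lower and 8 higher of 47, since other peaks enter. The Ptgs2 peak at 15.6 kb turned its sign on BGI without MEF 4 (-0.03, adjusted p = 0.830; -0.03 to 0.19 over the libraries left out), and the Il6 locus sum turned with 50 kb (0.41 on BGI, 2.12 on Illumina). The cause was not tested.

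Between platforms, the replicate block raised the calls from 0 to 12 in MEFs and from 0 to 2 in mESCs. DESeq2 called 1 member in MEFs, and leaving out libraries gave 0 to 1 in MEFs and 0 in mESCs. Peaks with few reads in mESCs (6 to 60 over 3 samples) fix a large difference and not its exact size.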
